A study of Homo sapiens with 18 samples.

Results

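Expression of 10 genes linked to ERG fusion-positive prostate cancer was examined in VCaP, an established human prostate cancer line with the TMPRSS2:ERG fusion. The genes are TDRD1, PLA1A, ARHGDIB, DLX1, TRIM14, PLAT, CACNA1D, KCNH8, NCALD, and HLA-DMB. They were taken from a list of genes known to be high in such tumors or named for ERG in the study, and all 10 were found among the 22034 genes of the count table. The study compared loss of ERG by RNA interference with PBITE-1, a small molecule described as binding the PNT domain of the ERG protein. VCaP-shERG cells, which carry a short hairpin RNA against ERG in the pLKO-Tet-on-puro system, received DMSO (shERG-DMSO) or doxycycline at 1 µg/mL (shERG-Dox). Parental VCaP cells received DMSO or 50 µM of PBITE-1 for 4, 8, or 12 h. There were 6 groups with 3 libraries in each. All 18 libraries are from this single line, so ERG-negative cells were not part of the comparison, and no library from cells with Dox but without the ERG hairpin was analysed here. The 3 times of PBITE-1 share the same DMSO libraries. The duration of Dox and the collection time of the DMSO samples are not given in the labels.

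In most ERG fusion-positive prostate tumors, androgen-driven regulatory sequence of TMPRSS2 controls the ERG coding sequence, and the luminal cell then makes an ETS transcription factor that it normally lacks. ETS factors bind DNA at a core GGAA sequence. The genes studied here have varied functions, in the germ-line piRNA pathway, lipid metabolism, GTPase regulation, development, innate immunity, proteolysis, ion transport, calcium sensing, and antigen processing.

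Total counts were 11308600 to 17483423 per library. Levels below are CPM, that is, counts relative to library size, scaled by TMM over the 18 libraries. Changes are log2 fold changes ± SE from limma-voom, with p-values adjusted by Benjamini-Hochberg over all 14164 genes tested. A gene was called at an adjusted p under 0.05 and a log2 fold change past 1, the study's own thresholds. The summed level of 10 prostate luminal markers was 8750 to 8910 CPM with DMSO, 8300 to 8370 CPM at 4 h, 6200 to 6360 CPM at 8 h, and 4470 to 5140 CPM at 12 h. In VCaP-shERG it was 10400 to 10700 CPM with DMSO and 6730 to 6910 CPM with Dox. This sum thus fell beside the members, with 1 of the 10 markers called lower with Dox and 3 at 12 h, and its part in the results below was not tested. Sums of leukocyte, endothelial, and fibroblast markers stayed between 0.281 and 9.56 CPM. None of the 10 luminal markers was at 0 in all libraries of a group. A lower level of a transcript per cell and a smaller share of cells that express it cannot be told apart in bulk RNA.

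Regulatory sequence upstream of the members was read from RefSeq promoter windows on GRCh38.p14, which span 250 bases before to 50 bases after a transcription start. In total, 8 of the 10 members had an entry, with 12 windows among them. The ETS-type motifs AGGAAG and CGGAAG were searched on both strands. At least 1 match was present for 5 of these 8 members, against 51.6% of the 27305 genes with an entry, so the motif was about as common among the members as elsewhere. Per window, 6 of 12 held a match, compared with 46.9% of 35116 windows. The 4 windows shown are from the 1 member called lower at 4 h (DLX1), the member left at the lowest share at 12 h (TRIM14), a known ERG target gene (TDRD1, the first of its 2 windows), and the member that fell least (KCNH8). Capitals mark ETS-type motifs, read on either strand, and the KCNH8 window held none.
DLX1: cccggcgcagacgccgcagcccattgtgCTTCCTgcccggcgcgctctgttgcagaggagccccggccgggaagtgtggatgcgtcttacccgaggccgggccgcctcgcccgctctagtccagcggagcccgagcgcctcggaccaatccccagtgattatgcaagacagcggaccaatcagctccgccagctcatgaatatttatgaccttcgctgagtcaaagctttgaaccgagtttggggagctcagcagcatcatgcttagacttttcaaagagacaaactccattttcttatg
TRIM14: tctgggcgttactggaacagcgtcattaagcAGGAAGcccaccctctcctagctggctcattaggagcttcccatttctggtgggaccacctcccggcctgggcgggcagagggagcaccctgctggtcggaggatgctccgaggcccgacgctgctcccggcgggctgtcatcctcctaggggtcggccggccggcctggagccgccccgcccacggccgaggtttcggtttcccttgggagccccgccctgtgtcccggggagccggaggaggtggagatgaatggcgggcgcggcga
TDRD1: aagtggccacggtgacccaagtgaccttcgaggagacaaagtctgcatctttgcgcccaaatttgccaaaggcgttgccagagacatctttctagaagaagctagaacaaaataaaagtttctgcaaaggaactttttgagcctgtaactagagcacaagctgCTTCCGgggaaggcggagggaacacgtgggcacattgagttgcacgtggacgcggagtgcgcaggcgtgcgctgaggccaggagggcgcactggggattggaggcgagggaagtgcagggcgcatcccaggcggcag
KCNH8: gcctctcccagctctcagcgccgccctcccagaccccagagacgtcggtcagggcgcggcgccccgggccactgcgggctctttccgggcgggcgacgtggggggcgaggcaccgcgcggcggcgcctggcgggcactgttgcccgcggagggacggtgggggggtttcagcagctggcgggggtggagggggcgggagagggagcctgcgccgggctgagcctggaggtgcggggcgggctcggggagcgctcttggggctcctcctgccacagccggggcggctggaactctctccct
The DLX1 window is chr2:172085257-172085556 on the plus strand and that of TRIM14 is chr9:98119173-98119472 on the minus strand. The TDRD1 window is chr10:114179037-114179336 and the KCNH8 window is chr3:19148260-19148559, both on the plus strand. PLA1A and ARHGDIB also had a match in 1 of their windows, whereas CACNA1D and HLA-DMB had none. A match describes these letters only, and binding of ERG at these windows was not measured here.

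ERG was reduced in both experiments. ERG measured 431, 419, and 407 CPM in shERG-DMSO and 156, 157, and 149 CPM in shERG-Dox (log2 fold change -1.44 ± 0.04, adjusted p = 3.29e-22). In parental cells, ERG was at 294, 304, and 312 CPM with DMSO, 184, 190, and 185 CPM at 4 h, 99.7, 96.8, and 93.2 CPM at 8 h, and 104, 90.5, and 103 CPM at 12 h. ERG mRNA thus fell with PBITE-1 as well, by 0.68 at 4 h, 1.62 at 8 h, and 1.58 at 12 h on the log2 scale. From 8 to 12 h it did not change beyond the spread of the libraries (0.04 ± 0.05, adjusted p = 0.501).

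ERG knockdown lowered most of the members. With Dox, 5 of 10 members were called lower (PLA1A, ARHGDIB, DLX1, TRIM14, and PLAT), compared with 7.19% of all genes tested. NCALD was the 1 member called higher, against 12% of all genes. At an adjusted p under 0.05 without a minimum fold change, 9 members were lower, against 35.3% of all genes. The median log2 fold change of the members was -0.97, and that of all genes was 0.02. TDRD1, PLA1A, ARHGDIB, DLX1, TRIM14, and PLAT are among the genes labelled in the study's heat map of these same samples. The study describes the genes of that map as identified by ERG knockdown in VCaP. Neither their direction nor their share of the calls is therefore independent evidence, and all members called lower are among them. Of the members without a label, CACNA1D (-0.55), KCNH8 (-0.27), and HLA-DMB (-0.89) fell short of the fold change threshold, and NCALD rose (1.14). Over all genes, 1019 were called lower and 1699 higher with Dox. Without the TMM correction these were 506 and 2430, the median of all genes moved to 0.28, and only ARHGDIB and PLAT of the members stayed called lower.

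PBITE-1 lowered more members with time. At 4 h, only DLX1 was called lower, against 2.99% of all genes. At 8 h, 5 members were called lower (TDRD1, ARHGDIB, DLX1, PLAT, and HLA-DMB), against 8.86%. At 12 h, 9 members were called lower, all but KCNH8, against 15.4%. KCNH8 was also lower at 12 h by adjusted p, so that all 10 members then passed this criterion, against 39.4% of all genes. The members had median log2 fold changes of -0.25, -0.96, and -1.95 at the 3 times, whereas the median of all genes was between -0.02 and -0.01. All 10 members had each 12 h library below each DMSO library, as did 41.2% of all genes. No member was called higher at any time, against 7.28%, 14.9%, and 17.1% of all genes at 4, 8, and 12 h. By adjusted p alone, 6 members were lower at 4 h and 9 at 8 h, against 24.7% and 37% of all genes. The heat map with labels for TDRD1, PLA1A, ARHGDIB, DLX1, TRIM14, and PLAT also shows these PBITE-1 samples. Their part in these counts is therefore not independent evidence. Of the members without a label, HLA-DMB was called lower at 8 and 12 h, and CACNA1D and NCALD at 12 h only.

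**Figure D1:**
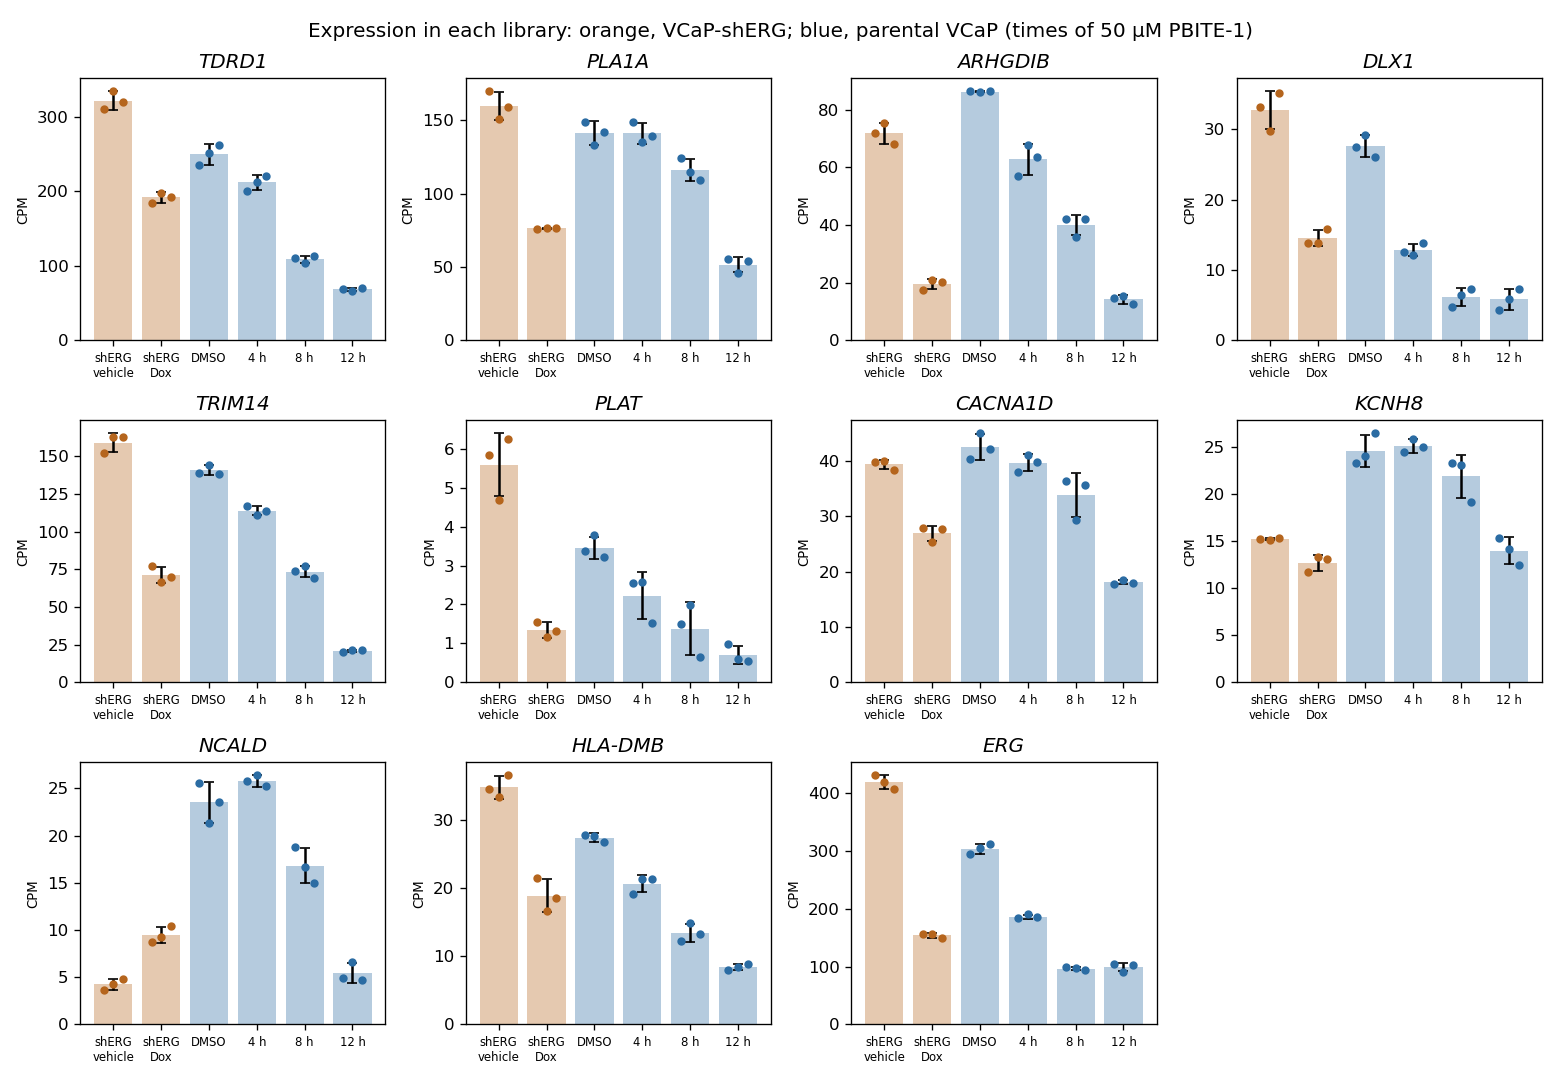
Expression of the 10 members and ERG in CPM (y-axis, from 0) in each of the 18 libraries, by group (x-axis). Points are libraries, bars are means, and error bars are SD (n = 3), with VCaP-shERG in orange and parental VCaP in blue. All 3 libraries at 12 h lie below all 3 DMSO libraries for each gene, and NCALD alone is higher with Dox.

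DLX1 was the 1 member called lower at 4 h. It encodes a homeobox transcription factor of the distal-less family and is known as a urine marker of prostate cancer. DLX1 was at 27.4, 29.2, and 26.1 CPM with DMSO and at 12.5, 12.2, and 13.8 CPM after 4 h of PBITE-1. It reached 4.69, 6.45, and 7.28 CPM at 8 h and 4.31, 5.95, and 7.30 CPM at 12 h. The libraries at 8 and 12 h overlap fully, while those at 4 h lie between them and DMSO. The log2 fold change was -1.08 ± 0.11 at 4 h (adjusted p = 1.45e-10), -2.20 ± 0.14 at 8 h (1.02e-16), and -2.20 ± 0.15 at 12 h (7.96e-17). Its step from 8 to 12 h was -0.01 ± 0.19 (adjusted p = 0.977, 95% CI -0.38 to 0.37). With Dox, DLX1 went from 33.2, 29.8, and 35.2 CPM to 13.9, 13.8, and 15.8 CPM (-1.17 ± 0.09, adjusted p = 1.71e-11).

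TDRD1, which encodes a Tudor-domain protein of the germ-line piRNA pathway, fell in steps. In parental cells it was at 236, 251, and 263 CPM with DMSO, 201, 213, and 221 CPM at 4 h, 111, 104, and 113 CPM at 8 h, and 69.4, 66.0, and 70.0 CPM at 12 h. No 2 of these 4 groups overlap. After 4, 8, and 12 h, its log2 fold change was -0.22 ± 0.04, -1.17 ± 0.05, and -1.83 ± 0.05 (adjusted p = 6.54e-05, 4.83e-23, and 1.98e-28). With Dox, TDRD1 went from 311, 335, and 320 CPM to 184, 198, and 193 CPM. That change (-0.75 ± 0.04, adjusted p = 5.20e-16) did not reach the fold change threshold.

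ARHGDIB, a GDP dissociation inhibitor that is best known in blood cells, fell strongly in both experiments. It was at 71.8, 75.3, and 68.2 CPM in shERG-DMSO and at 17.5, 20.9, and 20.1 CPM in shERG-Dox (-1.89 ± 0.08, adjusted p = 1.46e-17). Parental cells had 86.4, 86.0, and 86.4 CPM with DMSO, 57.1, 67.6, and 63.6 CPM at 4 h, 42.0, 36.0, and 42.1 CPM at 8 h, and 14.6, 15.4, and 12.5 CPM at 12 h. Each group lies wholly below the one before it. After 4, 8, and 12 h, its log2 fold change was -0.44 ± 0.06, -1.09 ± 0.07, and -2.57 ± 0.09 (adjusted p = 1.23e-07, 1.53e-17, and 3.93e-25).

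PLAT encodes tissue-type plasminogen activator, a secreted serine protease. It was the least abundant member, with 7 to 89 counts per library. PLAT was at 5.83, 4.68, and 6.25 CPM in shERG-DMSO and at 1.56, 1.16, and 1.31 CPM in shERG-Dox (-2.01 ± 0.27, adjusted p = 2.24e-07). In parental cells it was at 3.38, 3.78, and 3.23 CPM with DMSO, 2.56, 2.59, and 1.53 CPM at 4 h, 1.5, 1.98, and 0.645 CPM at 8 h, and 0.982, 0.602, and 0.551 CPM at 12 h. Each PBITE-1 group lies below DMSO, but neighboring times overlap. After 4, 8, and 12 h, its log2 fold change was -0.65 ± 0.27, -1.33 ± 0.31, and -2.24 ± 0.37 (adjusted p = 0.0429, 0.000243, and 1.22e-06). The third library at 8 h held 7 counts of PLAT, and without it the change at 8 h was -0.97, short of the fold change threshold, although its adjusted p was 0.00426.

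HLA-DMB, the beta chain of the peptide-exchange molecule HLA-DM of the class II pathway, had a moderate fall. It was at 27.8, 27.7, and 26.7 CPM with DMSO, 19.1, 21.3, and 21.3 CPM at 4 h, 12.2, 14.9, and 13.2 CPM at 8 h, and 8.01, 8.49, and 8.88 CPM at 12 h. The 4 groups do not overlap. The log2 fold change was -0.39 ± 0.09, -1.01 ± 0.10, and -1.65 ± 0.11 at the 3 times (adjusted p = 0.000217, 3.67e-12, and 1.33e-16). The call at 8 h sits at the fold change threshold, with -0.92 when the first 8 h library is left out. With Dox, HLA-DMB went from 34.6, 33.3, and 36.6 CPM to 21.5, 16.6, and 18.5 CPM (-0.89 ± 0.09, adjusted p = 1.12e-09).

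TRIM14 and PLA1A had their largest step from 8 to 12 h, as did ARHGDIB, CACNA1D, KCNH8, and NCALD. For PLAT and HLA-DMB, this step exceeded that from 4 to 8 h by less than its SE. TRIM14 was already lower at 4 h (-0.29 ± 0.05, adjusted p = 1.89e-06). TRIM14, an adaptor of antiviral signaling at mitochondria, was at 139, 144, and 138 CPM with DMSO, 117, 111, and 114 CPM at 4 h, 73.8, 77.3, and 69.4 CPM at 8 h, and 20.4, 21.3, and 21.5 CPM at 12 h. Its groups do not overlap, and the largest step was the last one. From 8 to 12 h, TRIM14 fell by 1.79 ± 0.07 on the log2 scale (adjusted p = 1.98e-22), after -0.62 ± 0.05 from 4 to 8 h. The total change at 12 h was -2.70 ± 0.07 (adjusted p = 6.79e-30), the most negative of the 10 members. With Dox, TRIM14 went from 152, 163, and 163 CPM to 77.5, 66.7, and 69.8 CPM (-1.16 ± 0.05, adjusted p = 6.94e-17). TRIM14 overlaps NANS on the opposite strand, and it is not stated whether the counting used strand.

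PLA1A, a secreted phospholipase that acts on phosphatidylserine, did not fall at 4 h. It was at 149, 133, and 142 CPM with DMSO and at 149, 135, and 139 CPM at 4 h, which overlap (0.01 ± 0.05, 95% CI -0.09 to 0.12, adjusted p = 0.849). At 8 h it was at 124, 115, and 109 CPM (-0.25 ± 0.05, adjusted p = 7.95e-05), and at 12 h at 55.2, 46.2, and 53.8 CPM (-1.42 ± 0.06, adjusted p = 2.82e-22). Its step from 8 to 12 h was -1.16 ± 0.06, several times that from 4 to 8 h (-0.27 ± 0.06). With Dox, PLA1A went from 170.0, 151, and 159 CPM to 76.2, 76.8, and 76.3 CPM (-1.06 ± 0.05, adjusted p = 1.23e-16).

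Of the 2 ion channel genes, CACNA1D changed more than KCNH8. CACNA1D, the pore-forming subunit of an L-type calcium channel, was at 40.3, 45.0, and 42.1 CPM with DMSO and at 38.0, 41.1, and 39.8 CPM at 4 h. These overlap (-0.08 ± 0.07, adjusted p = 0.407). It was at 36.4, 29.2, and 35.6 CPM at 8 h (-0.31 ± 0.07, adjusted p = 0.000331) and at 17.7, 18.5, and 18 CPM at 12 h (-1.19 ± 0.09, adjusted p = 2.31e-15). With Dox, CACNA1D went from 39.7, 39.9, and 38.3 CPM to 27.8, 25.3, and 27.6 CPM (-0.55 ± 0.07, adjusted p = 1.24e-07). CACNA1D overlaps DCP1A and CHDH on the opposite strand, with the same limit as for TRIM14.

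KCNH8 encodes a voltage-gated potassium channel of the ether-a-go-go family. It was at 23.3, 24.0, and 26.5 CPM with DMSO, 24.5, 25.9, and 25 CPM at 4 h, and 23.3, 23.1, and 19.2 CPM at 8 h, and both PBITE-1 groups overlap DMSO, although the 8 h libraries lie below those at 4 h. At 12 h, with 15.3, 14.2, and 12.5 CPM, it fell (-0.78 ± 0.10, adjusted p = 5.30e-09), short of the fold change threshold. With Dox, KCNH8 went from 15.2, 15.1, and 15.3 CPM to 11.7, 13.3, and 13.1 CPM, the smallest change with Dox among the members (-0.27 ± 0.10, adjusted p = 0.023). This decrease was lost with library size only (-0.01, adjusted p = 0.964), with upper-quartile scaling (-0.10, adjusted p = 0.363), with DESeq2 (-0.26, adjusted p = 0.074), with at least 10 counts in every library (-0.22, adjusted p = 0.0609), and without the first shERG-Dox library (-0.20, adjusted p = 0.114).

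NCALD was the exception. This gene encodes neurocalcin delta, a calcium sensor of the recoverin family. In parental cells NCALD was at 25.6, 21.3, and 23.5 CPM with DMSO, 25.8, 26.4, and 25.2 CPM at 4 h, 18.8, 16.7, and 15.0 CPM at 8 h, and 4.91, 6.62, and 4.75 CPM at 12 h. The 4 h libraries overlap those of DMSO (0.16 ± 0.09, adjusted p = 0.124), and the later groups lie below. The log2 fold change was -0.43 ± 0.10 at 8 h (adjusted p = 0.00017) and -2.07 ± 0.14 at 12 h (adjusted p = 4.23e-16). In VCaP-shERG cells, NCALD was at 3.66, 4.24, and 4.85 CPM with DMSO and rose to 8.76, 9.24, and 10.4 CPM with Dox (1.14 ± 0.16, adjusted p = 7.23e-07). Even after this rise, the level stayed below that of parental cells with DMSO.

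**Figure D2:**
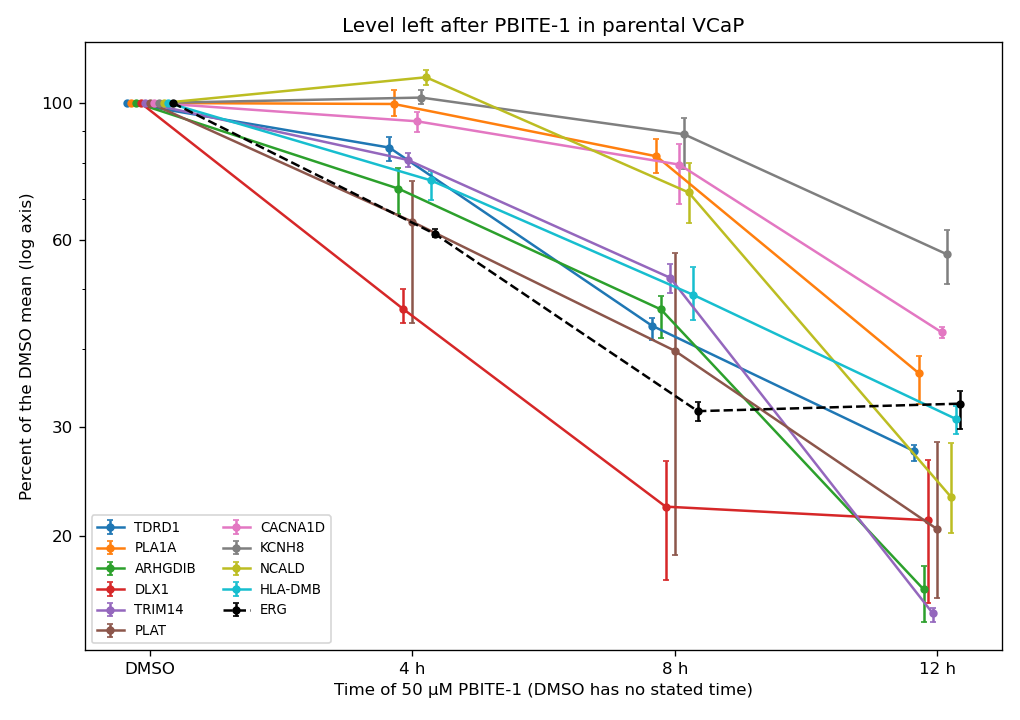
Level left in parental VCaP as a percent of the DMSO mean (y-axis, log scale) against time of 50 µM PBITE-1 (x-axis). Points are means, bars run from the lowest to the highest of 3 libraries, and ERG is dashed. At 4 h the mean of DLX1 alone lies below 50%, and at 12 h the members spread from 15.0% for TRIM14 to 57.0% for KCNH8.

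The order of the fall differed between times. At 4 h, DLX1 was left at 46.5% of its DMSO mean, followed by PLAT at 64.3%, ARHGDIB at 72.7%, HLA-DMB at 75.0%, TRIM14 at 80.9%, and TDRD1 at 84.7%. The range of PLAT (44.2 to 74.8%) overlapped those of DLX1 (44.2 to 50.0%) and ARHGDIB. ARHGDIB also overlapped HLA-DMB and TRIM14 overlapped TDRD1, so the only gap between neighbors among these 6 was that from HLA-DMB to TRIM14. CACNA1D, PLA1A, KCNH8, and NCALD were at 93.4 to 110.0%, with libraries that overlapped those of DMSO. At 8 h, DLX1 was at 22.3%, and PLAT, TDRD1, ARHGDIB, HLA-DMB, and TRIM14 followed at 39.8 to 52.2%, each overlapping its neighbor in that order. NCALD, CACNA1D, PLA1A, and KCNH8 came last, at 71.7 to 89.0%, also overlapping their neighbors.

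At 12 h, the order was TRIM14 at 15.0%, ARHGDIB at 16.4%, PLAT at 20.5%, DLX1 at 21.2%, NCALD at 23.1%, and TDRD1 at 27.4%. Each of these overlapped the next in at least 1 library, so the order of neighbors is not resolved. TRIM14 (14.5 to 15.3%) and ARHGDIB (14.5 to 17.9%) nevertheless lay wholly below NCALD (20.2 to 28.2%) and TDRD1 (26.4 to 28.0%). HLA-DMB at 30.9%, PLA1A at 36.6%, CACNA1D at 42.6%, and KCNH8 at 57.0% followed, and none of these overlapped its neighbors. The order of the members at each time was the same with library size in place of TMM. Both scalings apply a single factor per library to all genes, so this order could hardly change and the sameness is no check on it. By first time past an adjusted p of 0.05, 6 members fell at 4 h, 3 at 8 h (PLA1A, CACNA1D, and NCALD), and 1 at 12 h (KCNH8). With the fold change threshold, these were 1, 4, and 4 members, and KCNH8 was not called at any time.

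The share of the 12 h log2 fall reached at 4 and 8 h comes from the same group means as the order above. It restates how late each member fell, is no separate evidence, and had wide ranges over the libraries. DLX1 had reached 49.4% of it at 4 h and 96.9% at 8 h. TDRD1, HLA-DMB, and PLAT had reached 58.2 to 64.0% at 8 h, ARHGDIB 42.5%, and TRIM14 34.2%. CACNA1D (26.8%), NCALD (22.7%), KCNH8 (20.7%), and PLA1A (19.8%) had done least. At 8 h the ranges of CACNA1D (18 to 43.8%) and KCNH8 (9.67 to 43.6%) span that of TRIM14 (31.6 to 37.2%) and reach that of ARHGDIB (39.8 to 48.4%). The range of PLAT (35.2 to 106%) reaches from TRIM14 to DLX1 (85.9 to 114%), so the order at 8 h is only partly resolved. NCALD, with -6.50% at 4 h, lay above DMSO in the mean at that time.

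**Figure D3:**
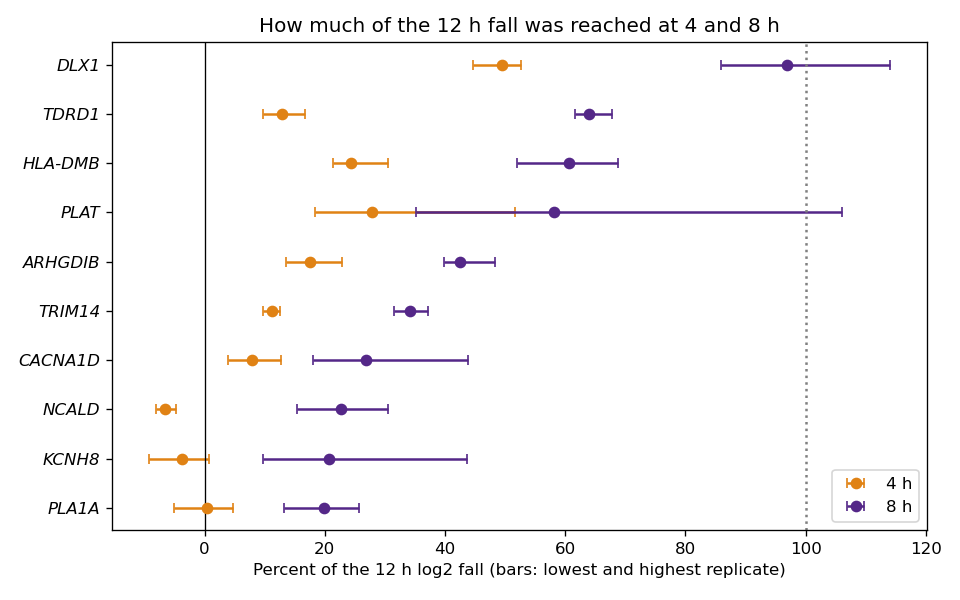
Percent of each member's 12 h log2 fall (x-axis) reached after 4 h (orange) and 8 h (purple) of PBITE-1, with members ordered by the 8 h value. Points are from group means and bars give the lowest and highest library. DLX1 stands at 96.9% at 8 h and PLA1A at 19.8%, and PLAT has the widest bars.

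Consecutive times were also tested directly. From 4 to 8 h, DLX1 alone was called lower (-1.12 ± 0.16, adjusted p = 2.28e-07), against 2.22% of all genes, and it was at -0.90 without the first 8 h library. By adjusted p alone, 8 members fell in this interval, against 26.3% of all genes. PLAT (-0.68 ± 0.35, adjusted p = 0.0947) and KCNH8 (-0.18 ± 0.09, adjusted p = 0.0981) did not pass. From 8 to 12 h, PLA1A, ARHGDIB, TRIM14, and NCALD were called lower, against 6.59% of all genes, with NCALD at -1.64 ± 0.15 (adjusted p = 4.57e-12) and ARHGDIB at -1.48 ± 0.10 (8.35e-16). By adjusted p alone, 8 members fell in this interval, against 32.5%. DLX1 and PLAT (-0.91 ± 0.43, adjusted p = 0.0675) did not pass. ERG itself fell by 0.94 ± 0.05 from 4 to 8 h (adjusted p = 2.51e-18) and did not change beyond the spread of the libraries thereafter, while these 8 members were lower at 12 h than at 8 h.

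The depth of the fall differed between knockdown and PBITE-1. With Dox, PLAT was left at 24.1% of its shERG-DMSO mean, ARHGDIB at 27.2%, DLX1 at 44.2%, TRIM14 at 44.9%, PLA1A at 47.8%, HLA-DMB at 54.2%, TDRD1 at 59.5%, CACNA1D at 68.5%, and KCNH8 at 83.5%. In this order PLAT overlapped ARHGDIB, and the members from DLX1 to TDRD1 each overlapped the next. The 12 h PBITE-1 response minus the Dox response was tested as an interaction, in which 4 members were called, against 28.9% of all genes in either direction. The difference was -1.12 ± 0.07 for TDRD1, -1.07 ± 0.18 for DLX1, -1.58 ± 0.09 for TRIM14, and -3.25 ± 0.22 for NCALD (adjusted p = 1.79e-19, 9.33e-07, 2.13e-20, and 3.20e-17). By adjusted p alone, 9 members differed, against 68.4% of all genes, and all 9 were more negative with PBITE-1. PLAT did not pass (-0.27 ± 0.47, 95% CI -1.21 to 0.67, adjusted p = 0.618). ERG differed by -0.17 ± 0.06 (adjusted p = 0.0101). Cell line, agent, and duration cannot be told apart in this comparison.

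**Figure D4:**
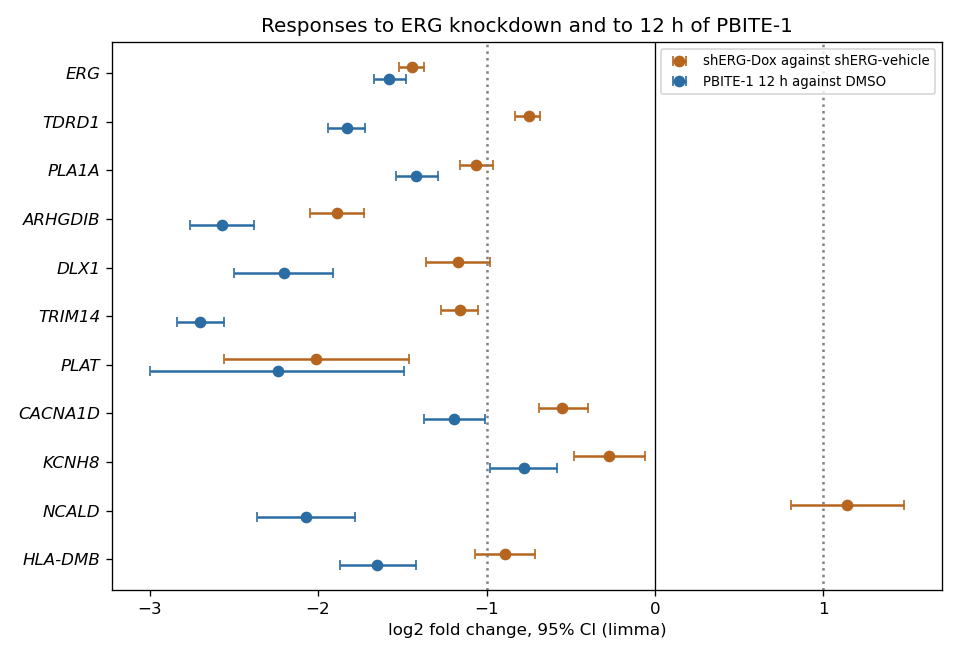
Log2 fold change (x-axis) of each member and ERG (y-axis) with Dox in VCaP-shERG (orange) and after 12 h of PBITE-1 in parental VCaP (blue), with 95% confidence intervals from limma. Dotted lines mark a log2 fold change of 1 in either direction. ERG is at -1.44 and -1.58, and NCALD alone is on opposite sides of 0, at 1.14 and -2.07.

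The untreated lines differed as well. NCALD was 1 of 10 members called between shERG-DMSO and parental DMSO (-2.45 ± 0.16, adjusted p = 1.61e-17), against 6.18% of all genes in either direction. By adjusted p alone, 9 members differed, against 46.6% of all genes. Its mean was 4.25 ± 0.596 CPM (SD, n = 3) in shERG-DMSO and 23.5 ± 2.15 CPM in parental DMSO. KCNH8 was also lower in VCaP-shERG (-0.69 ± 0.09, adjusted p = 2.75e-08) and PLAT was higher (0.67 ± 0.20, adjusted p = 0.0051). ERG was higher in VCaP-shERG by 0.46 ± 0.04 (adjusted p = 1.09e-14). For NCALD and KCNH8, the vehicle level from which the Dox response was measured was therefore lower than in parental cells, and the role of this in their responses was not tested.

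Transcript abundance per kb of exon, which allows genes to be compared, ranked PLA1A first in parental DMSO, at 64.3 CPM per kb. TDRD1 followed at 47.6, ARHGDIB at 41.0, and TRIM14 at 25.7 CPM per kb. DLX1 (7.54), HLA-DMB (5.88), KCNH8 (4.00), NCALD (2.92), and CACNA1D (2.06 CPM per kb) were lower, and PLAT was lowest at 0.523 CPM per kb. ERG was at 40.0 CPM per kb. Lengths are the union of GENCODE release 29 exons, which can exceed the transcript that is present.

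Relatives of the members did not share one direction. The counts of relatives given here stand beside 7.19% of all genes called lower and 12% called higher with Dox, and 15.4% and 17.1% at 12 h. Of the 5 other DLX genes tested, none was called lower with Dox or at 12 h, and 2 were called higher in each. With Dox these were DLX4 (1.71 ± 0.33) and DLX5 (1.24 ± 0.49). At 12 h they were DLX5, with 1.18 CPM in the DMSO mean and 7.55 CPM at 12 h (2.80 ± 0.28), and DLX2, with 1.58 and 5.43 CPM (1.81 ± 0.24). DLX1 itself fell at that time. All 5 were at low levels, between 0.321 and 8.15 CPM in group means, and their median log2 fold change was 0.77 with Dox and 0.76 at 12 h.

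In the class II pathway, HLA-DMA, the partner chain of HLA-DMB, moved the other way. HLA-DMA averaged 0.689 CPM with DMSO and 3.34 CPM at 12 h (2.34 ± 0.38), and it was higher with Dox too (0.851 to 2.53 CPM, 1.54 ± 0.33). Of the 5 class II genes tested besides HLA-DMB, 3 were called higher with Dox (HLA-DMA, HLA-DRB1, and HLA-DQB1) and none lower. At 12 h, 2 were called higher (HLA-DMA and HLA-DQB1) and 3 lower (HLA-DRB1, HLA-DPA1, and HLA-DPB1, at -2.05 to -2.50). Their median log2 fold change was 1.38 with Dox and -2.05 at 12 h. CD74 and CIITA, the invariant chain and the transactivator of the pathway, were too low to be tested.

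Among the genes of the piRNA pathway, 6 of 10 tested were called higher with Dox and none lower, whereas TDRD1 was lower. Their median log2 fold change was 1.48, or 1.09 with genes at the detection floor of 3 counts set to that bound. TDRD9 had the most positive fitted change (0.0729 to 1.35 CPM), and TDRD5, TDRD6, PIWIL1, MOV10L1, and TDRD7 were the others. TDRD9, PIWIL1, and MOV10L1 were at or under 3 counts in every shERG-DMSO library, so their calls start from the floor. TDRD9 exceeded 3 counts only with Dox and was thus tested only through the group where it is high. MOV10L1 had 1, 3, and 12 counts with Dox and was tested only through the 12 h group, where it is high. TDRD7, a somatically expressed Tudor protein, averaged 11.7 CPM in shERG-DMSO and 29.3 CPM in shERG-Dox (1.31 ± 0.09). At 12 h, 4 were called higher and 3 lower, with ASZ1 (-2.62 ± 0.22), PLD6 (-1.74 ± 0.10), and PIWIL1 lower and TDRD6, TDRD7, PIWIL4, and MOV10L1 higher. In plasminogen activation, 2 of 5 genes tested were called higher with Dox (ANXA2 and PLAU) and 3 at 12 h (ANXA2, PLAU, and SERPINE2). PLAU had 0 counts in every shERG-DMSO library and 2, 1, and 6 with Dox, so its rise with Dox is near the floor. It was tested only through the PBITE-1 groups, where it is high. The receptor gene PLAUR was called lower in both (-1.08 ± 0.32 and -1.91 ± 0.35). SERPINE2, a secreted inhibitor of PLAT and other serine proteases, averaged 2.69 CPM with DMSO and 72.2 CPM at 12 h (4.77 ± 0.18). ANXA2, a cell-surface docking protein of the plasminogen system, averaged 20.3 and 118 CPM (2.56 ± 0.12), and it went from 7.59 to 27.8 CPM with Dox (1.88 ± 0.11).

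ARHGDIA, the more widely expressed relative of ARHGDIB, was lower with Dox by adjusted p (-0.92 ± 0.04) and at 12 h (-0.60 ± 0.05), where ARHGDIB was at -1.89 and -2.57. ARHGDIG, the other relative tested, was at -0.12 ± 0.23 with Dox (adjusted p = 0.659) and was called lower at 12 h, from 2.60 to 0.671 CPM (-1.93 ± 0.39). Calcium channel subunits were called higher with Dox in 5 of 10 cases (CACNA1C, CACNA1G, CACNA1I, CACNB3, and CACNA2D2) and lower in none. Of these, CACNA1I was at or under 3 counts in every shERG-DMSO library. CACNA1G had the most positive change, from 0.334 to 8.94 CPM (4.67 ± 0.40). At 12 h, CACNA1I and CACNA2D2 were called higher and CACNA1C and CACNB4 lower. CACNA1C, the other L-type pore subunit tested, averaged 4.96 CPM in shERG-DMSO and 19.0 CPM in shERG-Dox (1.93 ± 0.14) but was lower at 12 h of PBITE-1 (-1.28 ± 0.16). Of 4 further ether-a-go-go channels, 2 were called higher with Dox (KCNH1 and KCNH6) and 3 lower at 12 h (KCNH1, KCNH2, and KCNH4), with KCNH2 at -1.59 ± 0.12. KCNH1 had 0, 7, and 5 counts in shERG-DMSO and 14, 16, and 5 with Dox, which overlap. At 12 h, KCNH1 had 3, 5, and 4 counts and KCNH4 had 6, 2, and 2, near the floor. Of 4 neuronal calcium sensors, 2 were called higher with Dox (HPCA and HPCAL4) and 2 at 12 h (HPCAL1 and HPCAL4). HPCA had 5, 2, and 1 counts in shERG-DMSO and was tested only through the Dox group, where it is high. NCS1 was lower with Dox by adjusted p (-0.85 ± 0.08) and called lower at 12 h (-1.75 ± 0.09). The 2 tested lipases of the PLA1A family moved in opposite directions with Dox. LPL was called lower (-1.95 ± 0.07) and LIPH higher, from 4.03 to 22.2 CPM (2.45 ± 0.15), and neither was called at 12 h (-0.97 ± 0.07 and 0.49 ± 0.16). Of 5 genes of TRIM14-type antiviral signaling, TRIM21 was called higher with Dox and TRIM38, at under 2 CPM in every group mean, lower at 12 h. TRIM38 had 3, 4, and 6 counts with DMSO and 0, 4, and 0 at 12 h, so this call is near the floor.

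**Figure D5:**
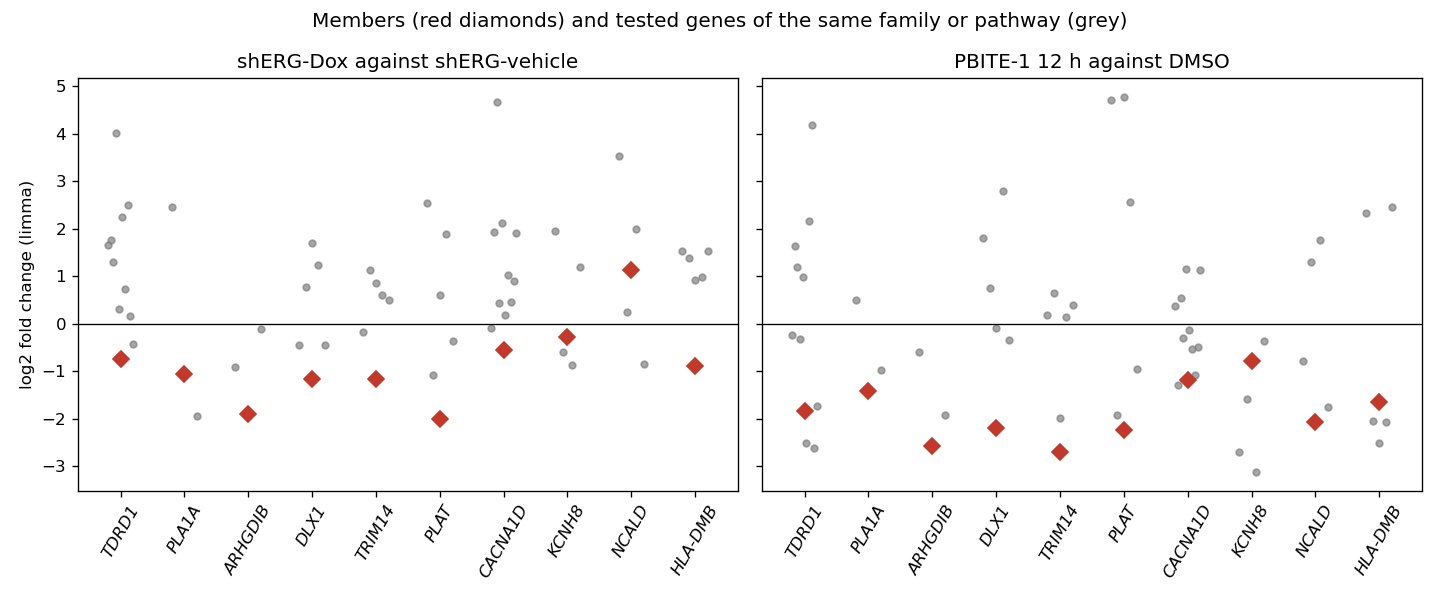
Log2 fold change from limma (y-axis) of each member (red diamond, x-axis) and of tested genes of the same family or pathway (grey points) with Dox (left) and at 12 h of PBITE-1 (right). Many grey points lie above 0 where the member lies below, including DLX5 at 2.80 and HLA-DMA at 2.34 on the right.

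A further 23 genes linked to ERG in prostate cancer were examined, of which 20 were tested. With Dox, 5 were called lower and 2 higher, against 7.19% and 12% of all genes, and at 12 h 6 were lower and 3 higher, against 15.4% and 17.1%. The 2 called higher with Dox were ADAM19, from 0.617 to 6.80 CPM (3.40 ± 0.33), and PLAU, which averaged 0.215 CPM with Dox. For PLAU this was 0 counts in every shERG-DMSO library against 2, 1, and 6 counts with Dox. TMPRSS2, USP36, and CAPN15 also carry labels in the study's heat map of these samples. The median log2 fold change of the 20 tested genes was -0.68 with Dox and -0.24 at 12 h (-0.60 and -0.24 with genes at the floor set to their bound). TMPRSS2, the 5' partner of the fusion, averaged 66.0 CPM in shERG-DMSO and 32.6 CPM in shERG-Dox (-1.02 ± 0.07). In parental cells TMPRSS2 averaged 56.4 CPM with DMSO and 21.3, 14.5, and 14.3 CPM at 4, 8, and 12 h (-1.39 ± 0.09, -1.95 ± 0.10, and -1.95 ± 0.10), so it was called at every time. EZH2, FZD4, USP36, and KCNG3 were called lower with Dox but not at 12 h, where EZH2 was at 0.04 ± 0.05. AMPD3, LEF1, CAPN15, and TLR4 were called lower at 8 and 12 h, with AMPD3 at -2.21 ± 0.15 at 12 h, and CRISP3 joined them at 12 h at the threshold (-1.0 ± 0.04). PLAU and CXCR4, which averaged 0.023 and 0.0826 CPM with DMSO, were called higher at 12 h, with means of 1.16 and 0.857 CPM. CXCR4 had 0, 2, and 2 counts with DMSO. Like PLAU, it was tested only through the PBITE-1 groups, where it is high. SOX9, a developmental transcription factor, was lower with Dox (-0.75 ± 0.06) and higher at 12 h (1.68 ± 0.05).

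Across the 18 libraries, the members' log2 CPM rose and fell largely together. The 45 pairs of members had a median Pearson r of 0.794 (-0.0334 to 0.974), and all 10 of the lowest pairs held NCALD or KCNH8. The gene whose pattern was most like a member, given for 9 members among all other genes tested, was POLR1A for TDRD1 (r = 0.99), LDHB for PLA1A (0.988), KPNB1 for ARHGDIB (0.99), TRUB2 for DLX1 (0.978), and CARS2 for TRIM14 (0.997). It was CKLF for PLAT (0.956), SLC4A4 for KCNH8 (0.968), AOX1 for NCALD (0.973), and MRPS7 for HLA-DMB (0.987). These are descriptions over 18 libraries that share their groups and controls.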

How the data were processed

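RNA-seq libraries were made from total RNA depleted of ribosomal RNA in 18 VCaP samples, 3 in each of 6 groups taken from the sample titles. The deposited values are raw counts in whole numbers, not scaled to depth or length by the authors. The study's methods name Kallisto, whereas the submitters' processing notes name STAR and featureCounts on hg38. Which of these made the table, the annotation release, and the use of strand are not given in the sources used here, so reads of overlapping genes could be assigned either way. The study calls the PBITE-1 samples biological replicates. For the shERG samples no separate cultures are stated, so p-values measure only the spread between these samples.

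Of 22034 genes, 22011 were matched to a symbol by Ensembl identifier. Exon lengths came from GENCODE release 29. filterByExpr in edgeR 4.0.16 over the 6 groups kept 14164 genes (64.3%). Scaling was by TMM, and testing by limma-voom (limma 3.58.1, R 4.3.3) with Benjamini-Hochberg adjustment. The 6 VCaP-shERG and 12 parental libraries were fitted separately, and all 18 together for the interaction and the comparison of lines. Calls required an adjusted p under 0.05 and a log2 fold change past 1. Correlations used log2 CPM with a prior count of 2. Intervals of 95% are from limma.

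The members, gene lists, and tests were chosen with earlier results of these data known. The text names the members and ERG in every comparison, and from each list the genes called with Dox or at 12 h, and some at the extremes. The gene most like CACNA1D is not reported here. The limma-voom procedure was tested on simulated counts. Alternatives tried were DESeq2 1.42.0, the quasi-likelihood test of edgeR, other scalings and filters, other sample sets, a replicate block, quality weights, no minimum fold change, and leaving out each library. Replicate numbers did not pair the samples.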

Additional observations from a re-analysis of the deposited data

Results flagged for a closer look

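The response to 12 h of PBITE-1 in parental cells was compared with the response to Dox in VCaP-shERG cells. The interaction test in limma called 4 members, against 28.9% of all genes in either direction. By adjusted p alone, 68.4% of all genes differed, so a difference here is not particular to the members. Cell line, agent, and duration cannot be told apart in this comparison. The log2 difference was -1.12 for TDRD1, -1.07 for DLX1, -1.58 for TRIM14, and -3.25 for NCALD, each more negative with PBITE-1. In TDRD1, DLX1, and TRIM14 both responses were downward and differed in depth. In NCALD they were opposite in direction, with 3 of 3 Dox libraries above all shERG-DMSO libraries and 3 of 3 libraries at 12 h below all DMSO libraries. DLX1 was short of the fold change threshold with sample quality weights (-0.96), without the second shERG-DMSO library (-1.0), and without the first 12 h library (-0.88).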

How the results depend on the processing

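Leaving out each library in turn gave 5 members lower with Dox, 1 at 4 h, 4 to 5 at 8 h, 9 at 12 h, 0 to 1 from 4 to 8 h, 4 to 5 from 8 to 12 h, 3 to 4 in the interaction, and 1 between the lines. The count of 0 from 4 to 8 h arose without the first 8 h library, where DLX1 was at -0.90 (8 members passed an unadjusted p under 0.05 with all libraries). Without a minimum fold change, 9 members were lower with Dox, 6 at 4 h, 9 at 8 h, 8 from 4 to 8 h, and 8 from 8 to 12 h, 9 differed in the interaction, and 9 between the lines. With Dox, upper-quartile scaling left 3 members called and library size only left 2, since these scalings moved the median of all genes to 0.18 and 0.28. PLA1A was then at -0.90 and -0.80, TRIM14 at -1.0 and -0.90, and DLX1 at -0.91 with library size only. With upper-quartile scaling 684 genes were called lower and 2112 higher. At 8 h, a minimum of 10 counts in every library left 3 members, because PLAT was no longer tested and HLA-DMB was at -0.99. The other alternatives kept each count of members within 1.5 times. The change of PLA1A at 4 h, 0.01 as reported, was -0.01 with upper-quartile scaling and in a single fit of 18 libraries, and -0.03 with library size only, without the second DMSO library, and without the first 4 h library. The change of DLX1 from 8 to 12 h, -0.01 as reported, was 0.00 with RLE scaling, 0.02 with upper-quartile scaling, library size only, and only the groups compared, 0.10 with quality weights, and between -0.22 and 0.18 when single libraries were left out, with 0.06 without the second 8 h library, 0.10 without the 8 h library that held 7 counts of PLAT, and 0.18 without the first 12 h library. Neither passed the test in any of these. The replicate block gave 5, 1, 4, and 9 members lower with Dox and at 4, 8, and 12 h, with HLA-DMB at -1.0 at 8 h. Same-numbered libraries did not deviate together (r between -0.0232 and 0.0375), so the numbers were not used as pairs.

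Depth limits PLAT most, with 7 to 89 counts per library, and its step from 8 to 12 h was called only with quality weights (-1.01) or without the 8 h library with 7 counts (-1.27). Other members had at least 47 counts in every library.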
